A study of Mus musculus with 10 samples.

Results

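The replication-dependent histone genes of the mouse were followed through 10 bulk RNA-seq libraries of MYC/SMARCA4 tumors, SHH MB and developing cerebellum. Members were chosen by symbol alone, as H1f1 to H1f6 and every gene named H2ac, H2bc, H3c or H4c with a number, or by the older Hist form of these names. The rule found 65 genes among the 50559 in the count tables, all under current symbols: 6 encoding the linker histone H1, 18 encoding H2A, 17 encoding H2B, 12 encoding H3 and 12 encoding H4. Of these, 61 passed the filter on low counts, under which 29952 genes were tested, and H1f6, H2bc24, H3c14 and H3c15 did not.

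The groups compared were P7 cerebella (n = 3), SHH MB (n = 3) and MYC/SMARCA4 tumors (n = 4). The tumors grew from granule cell precursors of Math1-creERT2::Smarca4fl/fl pups, in which 0.4 mg tamoxifen on P3 served to delete Smarca4 in Math1-expressing cells. These precursors were transduced with a lentivirus carrying murine Myc and GFP and transplanted into the cerebella of CD1nu/nu mice, which were 112, 96, 89 and 79 days old at sampling (tumors 1 to 4, one host each). The SHH MB came from Math1-cre::Smofl/wt mice at 7 days of age, a model in which a Smo allele is switched on in the same precursors. The P7 cerebella were whole cerebella of Math1-creERT2::Smarca4fl/fl pups given 0.4 mg tamoxifen on P3, so only their granule lineage could have lost Smarca4, and the tumors and these controls share both alleles and the drug. All tissue was formalin-fixed and paraffin-embedded. Host or normal tissue in a punch contributes RNA, and in such bulk samples fewer cells of a type and less RNA per cell cannot be told apart. Nothing states that the SHH MB or the P7 cerebella came from separate litters, so p-values measure the spread between these samples.

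Replication-dependent histone genes supply the histones that package newly copied DNA, and their mRNAs accumulate in S phase and decay when it ends. H2A, H2B, H3 and H4 form the nucleosome core, and H1 binds the linker DNA between nucleosomes. Unlike other mRNAs, these end not in a poly(A) tail but in a stem-loop that is bound by SLBP and cut downstream with the help of the U7 snRNP. A library primed on poly(A) therefore misses most of them, whereas the libraries here were made from total RNA after removal of ribosomal RNA. In the postnatal cerebellum, the granule cell precursors are the most actively dividing cells.

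The stem-loop shows why these genes form a unit in sequence as well as in function. A 16-base pattern of the arms GGNNCT and AGNGCC around the loop TTTN, on the coding strand and within 150 bases after the stop codon, was found in 58 of the 64 members with a gene model in GENCODE vM39 (GRCm39), 21 to 58 bases after the stop codon. It was found in 7 of 21601 other coding genes (0.0324%), namely H2ac25, H2ax, H2bc26, H2bc27, H2bw2, H3f4 and H4c16, which are themselves histone genes. By their GENCODE names H2ac25, H2bc26, H2bc27 and H4c16 fit the symbol rule, but the count tables hold no gene under these names. The following stem-loops, with the 16 bases of the pattern in capitals and 5 flanking bases on each side, belong to the members on which the results below turn.
H1f1, chr13:23948375-23948390, plus strand: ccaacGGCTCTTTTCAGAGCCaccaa
H1f4, chr13:23805765-23805780, minus strand: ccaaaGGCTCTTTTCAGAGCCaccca
H2ac10, chr13:23718529-23718544, plus strand: ccaaaGGCTCTTTTCAGAGCCaccac
H2ac21, chr3:96127649-96127664, plus strand: aaaaaGGCTCTTTTAAGAGCCaccaa
H2bc18, chr3:96177487-96177502, plus strand: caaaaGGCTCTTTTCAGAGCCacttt
H3c6, chr13:23746077-23746092, minus strand: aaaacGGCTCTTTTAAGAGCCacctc
H4c4, chr13:23765933-23765948, plus strand: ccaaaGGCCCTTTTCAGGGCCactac
H4c9, chr13:22225136-22225151, minus strand: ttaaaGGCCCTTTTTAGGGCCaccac
H4c14, chr3:96170255-96170270, minus strand: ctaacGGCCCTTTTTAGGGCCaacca
All 9 stem-loops found in H4 genes had the outer stem GGCC with GGCC, and all 49 found in the other classes had GGCT with AGCC. The pattern was not found after the stop codon of H2ac22, H2bc21, H3c8, H4c1, H4c2 or H4c11.

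The genes lie on chromosome 13 (54 members) and chromosome 3 (10 members), and 56 of the 64 gene models are a single exonic block, with the stem-loop in or just past the annotated 3′ UTR. Promoters from RefSeq (GRCm38.p6, 300 bases each) were present for 58 members and were searched on both strands. The octamer ATTTGCAT, known as the element of H2B promoters, stood in 7 of 14 H2B promoters (50%) and 6 of 17 H2A promoters (35.3%), in no H1, H3 or H4 promoter, and in 1.97% of all 27025 promoters. CCAAT stood in 50 of 58 (86.2%), against 41.1% of all, with H4 the exception at 3 of 11 (27.3%). TATAAA stood in 34 of 58 (58.6%), against 15.7% of all. None of the 3 words contains another, and a match is a description of the window only.

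Near-identical copies limit what a single histone gene's count can say. Only 7 members had at least 90% of their 75-base coding windows unique in the GRCm39 genome (H1f1, H1f5, H1f6, H2ac1, H2bc18, H2bc21 and H4c14), and 12 had none. In addition, 35 members overlap a gene on the opposite strand and 16 overlap one on the same strand. H1f4, for example, overlaps H2bc6 on the same strand, and H4c4 overlaps H2bc6 on the opposite strand. How reads with several matches and the strand were counted is not given in the sources used here, so values of single genes outside the 7 are uncertain in how reads were split among copies. Sums over a class do not depend on that split within the class, unless such reads were dropped.

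Total counts ranged from 5663491 to 9352109 per library, and 3 counts corresponded to 0.307 to 0.744 CPM (counts scaled to the size of the library) after normalization by trimmed mean of M-values. This floor covers counting error only, while the 95% intervals of fold changes below also cover the spread between libraries. Myc stood at 152 to 1587 normalized CPM in the tumors, 12.98 to 14.3 in the P7 cerebella and 33.7 to 45.7 in SHH MB. Smarca4 stood at 136 to 244 CPM in the tumors, 221 to 282 in the P7 cerebella and 491 to 590 in SHH MB, with counts over the whole gene that do not separate the deleted part. Tumor 1 stood apart: the summed CPM of fixed lists of markers of mature granule neurons, Purkinje cells and oligodendrocytes were 6360, 12080 and 4022 in it, against 240 to 2331, 380 to 2838 and 114 to 826 in the other 3 tumors, and its mitosis list stood at 154 against 2613 to 2743. Results are therefore given with and without tumor 1, but the marker lists still differed without it. The mature granule neuron list stood at 298 to 401 CPM in P7 cerebella and 130.5 to 143 in SHH MB. Without tumor 1 its median log2 fold change in the tumors was 1.74 against P7 cerebella and 3.44 against SHH MB. Medians for Purkinje cells and oligodendrocytes were -0.71 and -0.77 against P7 cerebella, and 0.90 and 0.67 against SHH MB. The part of these other cells in the results was not tested.

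Histone transcripts made up a similar share of 9 of the 10 libraries. Members with at least 1 count numbered 59 in tumor 1 and 64 or 65 elsewhere, and they took 0.0275% of the counts of tumor 1 and 0.223% to 0.347% of the others. Their summed normalized CPM was 3179, 2234 and 1922 in the P7 cerebella and 2573, 2631 and 2251 in SHH MB. In the MYC/SMARCA4 tumors it was 446, 2946, 1827 and 2542. The groups overlap, and tumor 1 lies far below every other library. On the log2 scale the sum averaged 11.22 ± 0.37 (SD, n = 3) in P7 cerebella, 11.28 ± 0.12 (SD, n = 3) in SHH MB and 10.62 ± 1.24 (SD, n = 4) in the tumors. Without tumor 1 the tumors averaged 11.22 ± 0.35 (SD, n = 3).

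**Figure D1:**
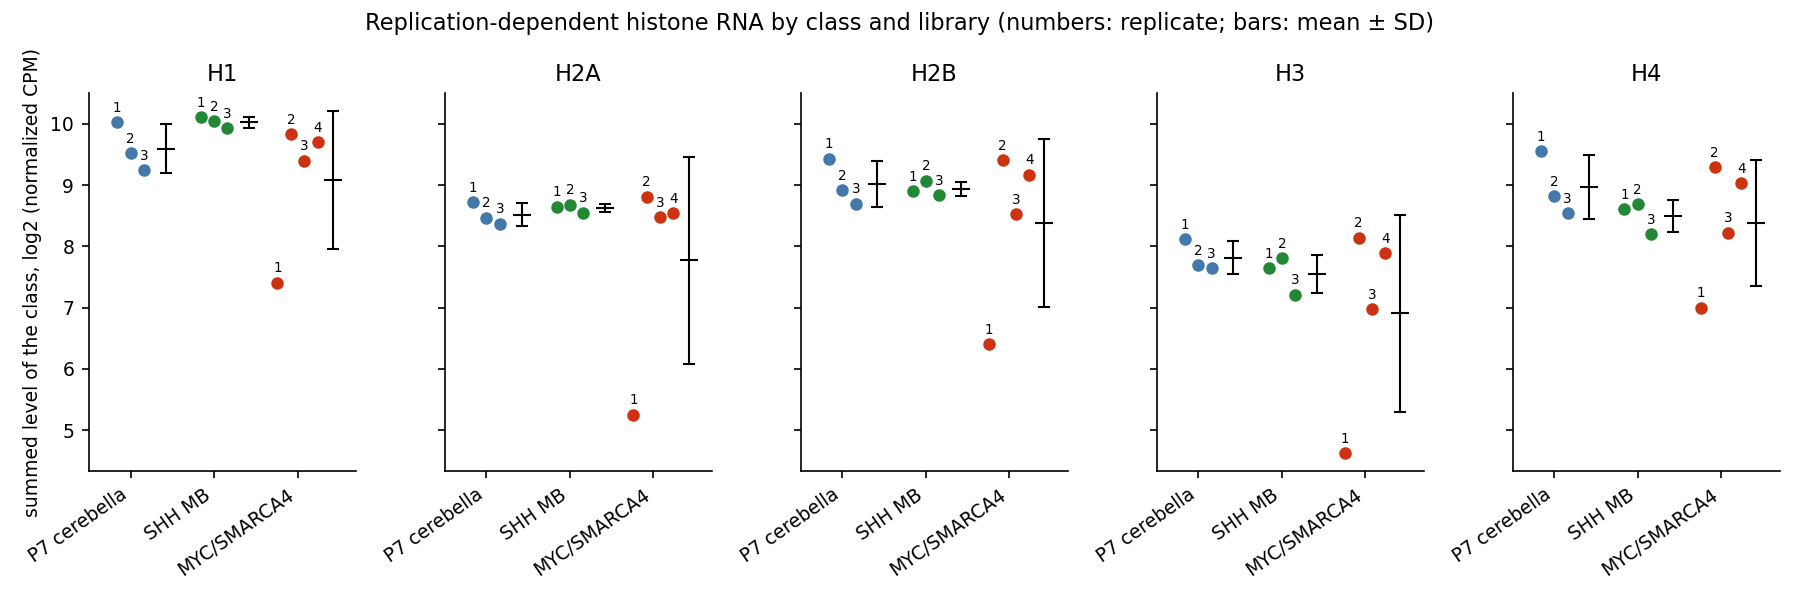
Log2 of the summed normalized CPM of the members of each histone class, 1 panel per class and 1 numbered point per library, for P7 cerebella, SHH MB and MYC/SMARCA4 tumors, with the mean ± SD of each group beside its points. Tumor 1 is the lowest point in every class, at 5.25 for H2A against 8.48 for the next tumor, and only for H1 do the SHH MB lie above all tumors.

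The classes did not differ between the groups in the same way. The summed H1 genes stood at 1103, 1050 and 978 CPM in SHH MB and at 171, 910, 675 and 832 CPM in the tumors, so that every SHH MB lay above every tumor. The log2 difference of tumors minus SHH MB was -0.94, and -0.38 without tumor 1, still with no overlap. P7 cerebella, at 1043, 736 and 605 CPM, overlapped both. For H2A, H2B, H3 and H4 the sums of all 3 groups overlapped. The log2 sums of the tumors, with all 4 and then without tumor 1, were 7.77 ± 1.69 and 8.61 ± 0.18 for H2A, against 8.52 ± 0.18 in P7 cerebella and 8.63 ± 0.07 in SHH MB (SD, n = 3 each). For H4 they were 8.38 ± 1.03 and 8.85 ± 0.56, against 8.97 ± 0.52 in P7 cerebella and 8.50 ± 0.26 in SHH MB. For H2B and H3 the tumors without tumor 1 differed by 0.02 and -0.15 from P7 cerebella and by 0.10 and 0.11 from SHH MB.

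The makeup of the histone pool set the SHH MB apart. H1 genes took 42.9%, 39.9% and 43.5% of the summed histone CPM in SHH MB, and 32.8%, 32.9% and 31.5% in P7 cerebella. In the tumors their share was 38.3%, 30.9%, 36.9% and 32.7%. Every SHH MB thus lay above every other library, while tumors and P7 cerebella overlapped. H4 genes showed the mirror image, with 15.2%, 15.7% and 13.03% in SHH MB, 23.6%, 20.2% and 19.3% in P7 cerebella and 28.8%, 21.2%, 16.4% and 20.6% in the tumors. The ratio of summed H1 to summed H4 was 2.83, 2.54 and 3.34 in SHH MB. It was 1.39, 1.63 and 1.63 in P7 cerebella and 1.33, 1.46, 2.26 and 1.59 in the tumors. The geometric mean ratio in SHH MB was 1.87 times that of P7 cerebella, and that of the tumors was 0.563 times that of SHH MB (0.601 without tumor 1). These ratios use counts not divided by gene length, so they compare groups and not the amounts of H1 and H4 themselves. The shares and the ratio are built from the same sums and are not separate observations. The gaps in the shares were narrow. For H1, tumor 1 stood at 38.3% against 39.9% in the lowest SHH MB. For H4, tumor 3 stood at 16.4% against 15.7% in the highest SHH MB.

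**Figure D2:**
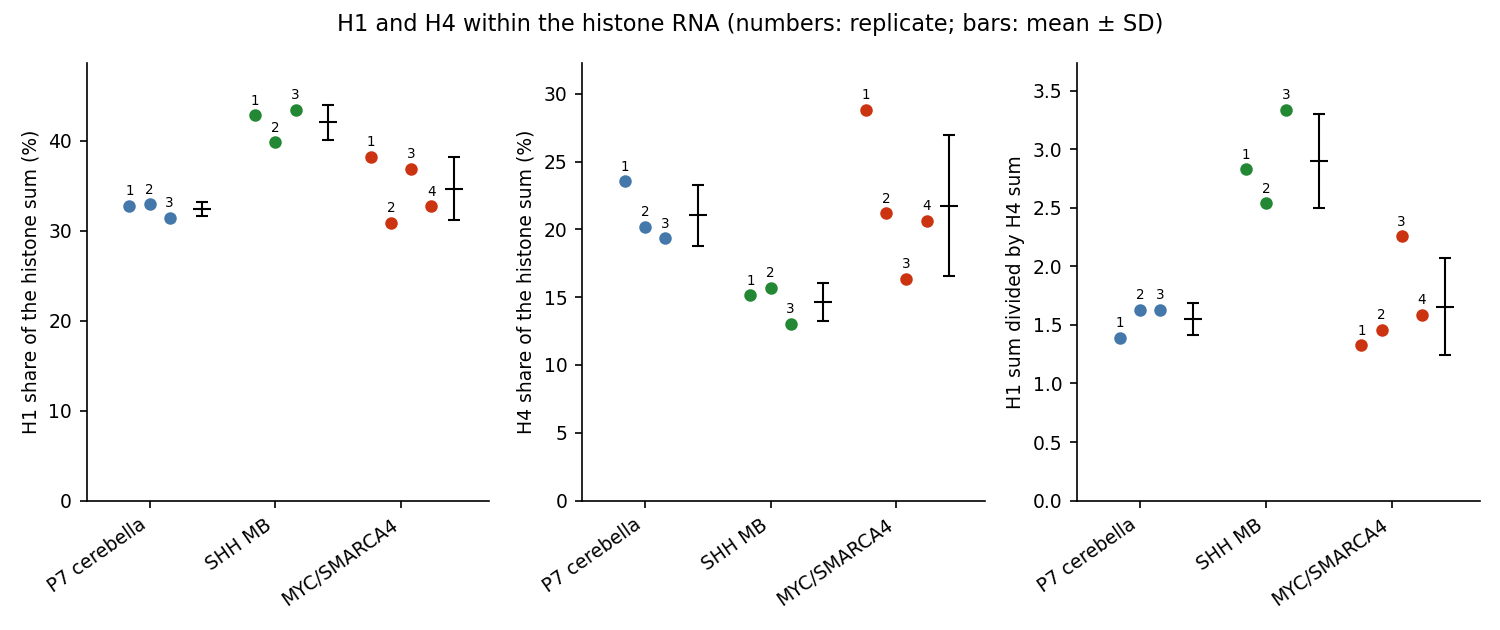
Share of H1 genes in the summed histone CPM (%, left), share of H4 genes (%, middle) and ratio of the H1 sum to the H4 sum (right), on linear axes from 0, with 1 numbered point per library and the mean ± SD of each group beside its points. The 3 SHH MB lie above all other libraries in the H1 share and in the ratio, at 2.54 to 3.34, and below them in the H4 share.

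Among the linker histone genes, H1f4, H1f3 and H1f2 held 65.4% of the class and were measured in every library. H1f4, which encodes the subtype H1.4, stood at 285, 210 and 167 CPM in P7 cerebella, 281, 266 and 263 CPM in SHH MB and 60.0, 265, 214 and 229 CPM in the tumors. H1f3 stood at 210, 143 and 115 CPM in P7 cerebella, 205, 211 and 182 CPM in SHH MB and 14.1, 220, 124 and 167 CPM in the tumors. Both genes were at a like level in all groups apart from tumor 1. H1f2 separated tumors from SHH MB, with 65.7, 144, 113 and 153 CPM in the tumors and 204, 181 and 158 CPM in SHH MB, and overlapped P7 cerebella at 198, 145 and 110 CPM.

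H1f1 and H1f5, whose coding windows are all unique, were at their highest in SHH MB. H1f5 overlaps Gm61650 on the same strand. H1f1 stood at 202, 204 and 189 CPM in SHH MB, 166, 126 and 108 CPM in P7 cerebella and 14.4, 106, 96.1 and 138 CPM in the tumors. H1f5 stood at 209, 188 and 186 CPM in SHH MB, 182, 112 and 105 CPM in P7 cerebella and 15.9, 175, 127 and 145 CPM in the tumors. For both, every SHH MB lay above every other library, and tumors and P7 cerebella overlapped. The gene model of H1f1 ends 1 base before the end of its stem-loop and that of H1f5 ends 46 bases before it. H1f6, the testis H1, had a mean of 0.63 CPM.

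Among the H2A genes, H2ac15, H2ac10 and H2ac4 held 51.3% of the class. H2ac10 stood at 57.9, 59.2 and 57.4 CPM in P7 cerebella and at 84.3, 85.0 and 75.9 CPM in SHH MB. It stood at 0, 75.2, 70.0 and 41.2 CPM in the tumors, of which every one lay below the SHH MB. The highest tumor, at 75.23 CPM, was close to the lowest SHH MB, at 75.85 CPM. H2ac15 stood at 88.2, 76.4 and 64.2 CPM in P7 cerebella, 96.8, 100 and 84.9 CPM in SHH MB and 2.73, 87.3, 71.2 and 87.2 CPM in the tumors, and H2ac4 likewise overlapped between groups. Since 28.8% of the coding windows of H2ac10 are unique, its zero in tumor 1 concerns only the reads given to it.

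Among the H2B genes, H2bc18, H2bc3 and H2bc6 held 49.3% of the class, and H2bc18, whose coding windows are all unique, had the highest level of any member per kilobase of gene model, at 399 CPM per kb. It stood at 205, 150 and 122 CPM in P7 cerebella, 166, 183 and 150 CPM in SHH MB and 45.9, 199, 101 and 198 CPM in the tumors. H2bc14 was the only member whose tumors all lay below all P7 cerebella, with 1.24, 24.5, 21.4 and 31.2 CPM in the tumors against 45.9, 31.9 and 32.1 CPM. The gap between the highest tumor and the lowest P7 cerebellum was thus under 1 CPM. The next members per kilobase were H1f5 at 194, H2ac15 at 193 and H1f1 at 182 CPM per kb, and H4c6 led the H4 genes at 125. This order depends on the annotated length, and it may depend on how reads with several matches were counted. H1f3, at a mean of 159 CPM, stood at 21.4 CPM per kb on a model of 7425 bases.

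Among the H3 genes, H3c6, H3c4 and H3c7 held 45.5% of the class. H3c6 stood at 48.0, 30.7 and 45.9 CPM in P7 cerebella, 37.2, 35.9 and 27.7 CPM in SHH MB and 7.69, 55.1, 19.2 and 47.1 CPM in the tumors, with the groups overlapping. H3c3 was lower in every SHH MB, at 16.8, 16.9 and 15.6 CPM, than in every P7 cerebellum, at 31.1, 18.8 and 24.3 CPM. Its tumors, at 1.49, 33.1, 10.6 and 27.8 CPM, spanned both. No H3 gene had 90% of its coding windows unique, so how reads were split among the H3 genes is uncertain.

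Among the H4 genes, H4c4, H4c14 and H4c6 held 54.5% of the class. H4c4 stood at 222, 150 and 119 CPM in P7 cerebella and at 110, 112 and 87.2 CPM in SHH MB, with no overlap, and at 31.0, 164, 82.0 and 137 CPM in the tumors. H4c14, the H4 gene with all coding windows unique, stood at 95.6, 57.2 and 44.4 CPM in P7 cerebella, 58.2, 60.7 and 39.8 CPM in SHH MB and 37.9, 85.5, 47.4 and 81.7 CPM in the tumors, and its groups overlapped. The difference seen in H4c4 was therefore not shared in full by H4c14. H4c9 was uneven among the tumors, with 6.20, 20.5, 5.18 and 15.98 CPM, against 7.66, 7.75 and 2.85 CPM in P7 cerebella and 2.96, 5.42 and 3.13 CPM in SHH MB. Tumors 2 and 4 were the highest for H4c9, and 40% of its coding windows are unique.

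The comparison of tumors with P7 cerebella asked how the MYC-driven tissue differed from developing cerebellum that carried the same Smarca4 and cre alleles and had received the same drug. Age (79 to 112 days against 7), transplantation into CD1nu/nu hosts and the part of the cells that lost Smarca4 differ as well. These cannot be told apart from MYC here. No member passed the threshold, an adjusted p of at most 0.05 in edgeR's quasi-likelihood test over all 10 libraries with Benjamini-Hochberg adjustment over all genes. By the same test, 3.99% of all genes tested were called higher in the tumors and 2.27% lower. Of the 61 members tested, none had an unadjusted p under 0.05 by edgeR, beside 15.3% of all genes higher and 9.97% lower. DESeq2 called no member, beside 10.4% of all genes higher and 4.44% lower. By limma on variance-stabilized values no member was called, beside 1.2% of all genes higher and 1.23% lower. The lowest adjusted p by edgeR was 0.26, for H4c9. The fitted log2 fold changes ran from -0.99 to 0.97, with 10 above 0 and 51 below and a median of -0.26, against -0.05 over all genes tested. The median half-width of the 95% interval was 1.22, so a change smaller than this could not be told from 0 for the median member. H2bc14 alone (1.64% of members) had groups without overlap, lower in the tumors, against 10.7% of all genes, and no member lay higher without overlap, against 10.3%.

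Without tumor 1, most histone genes lay slightly above P7 cerebella in place of below. Of the members, 37 were above 0 and 24 below, with a median log2 fold change of 0.10 against -0.16 over all genes. None was called by edgeR, while 11.1% of all genes were called higher and 5% lower. At an unadjusted p under 0.05, 2 members were higher and none lower (beside 17.9% and 11.7% of all genes), and the lowest adjusted p was 0.104. The 95% interval lay within 1 log2 unit of 0 for 35 of the 61 members. The direction of the members against P7 cerebella thus depended on 1 library.

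**Figure D3:**
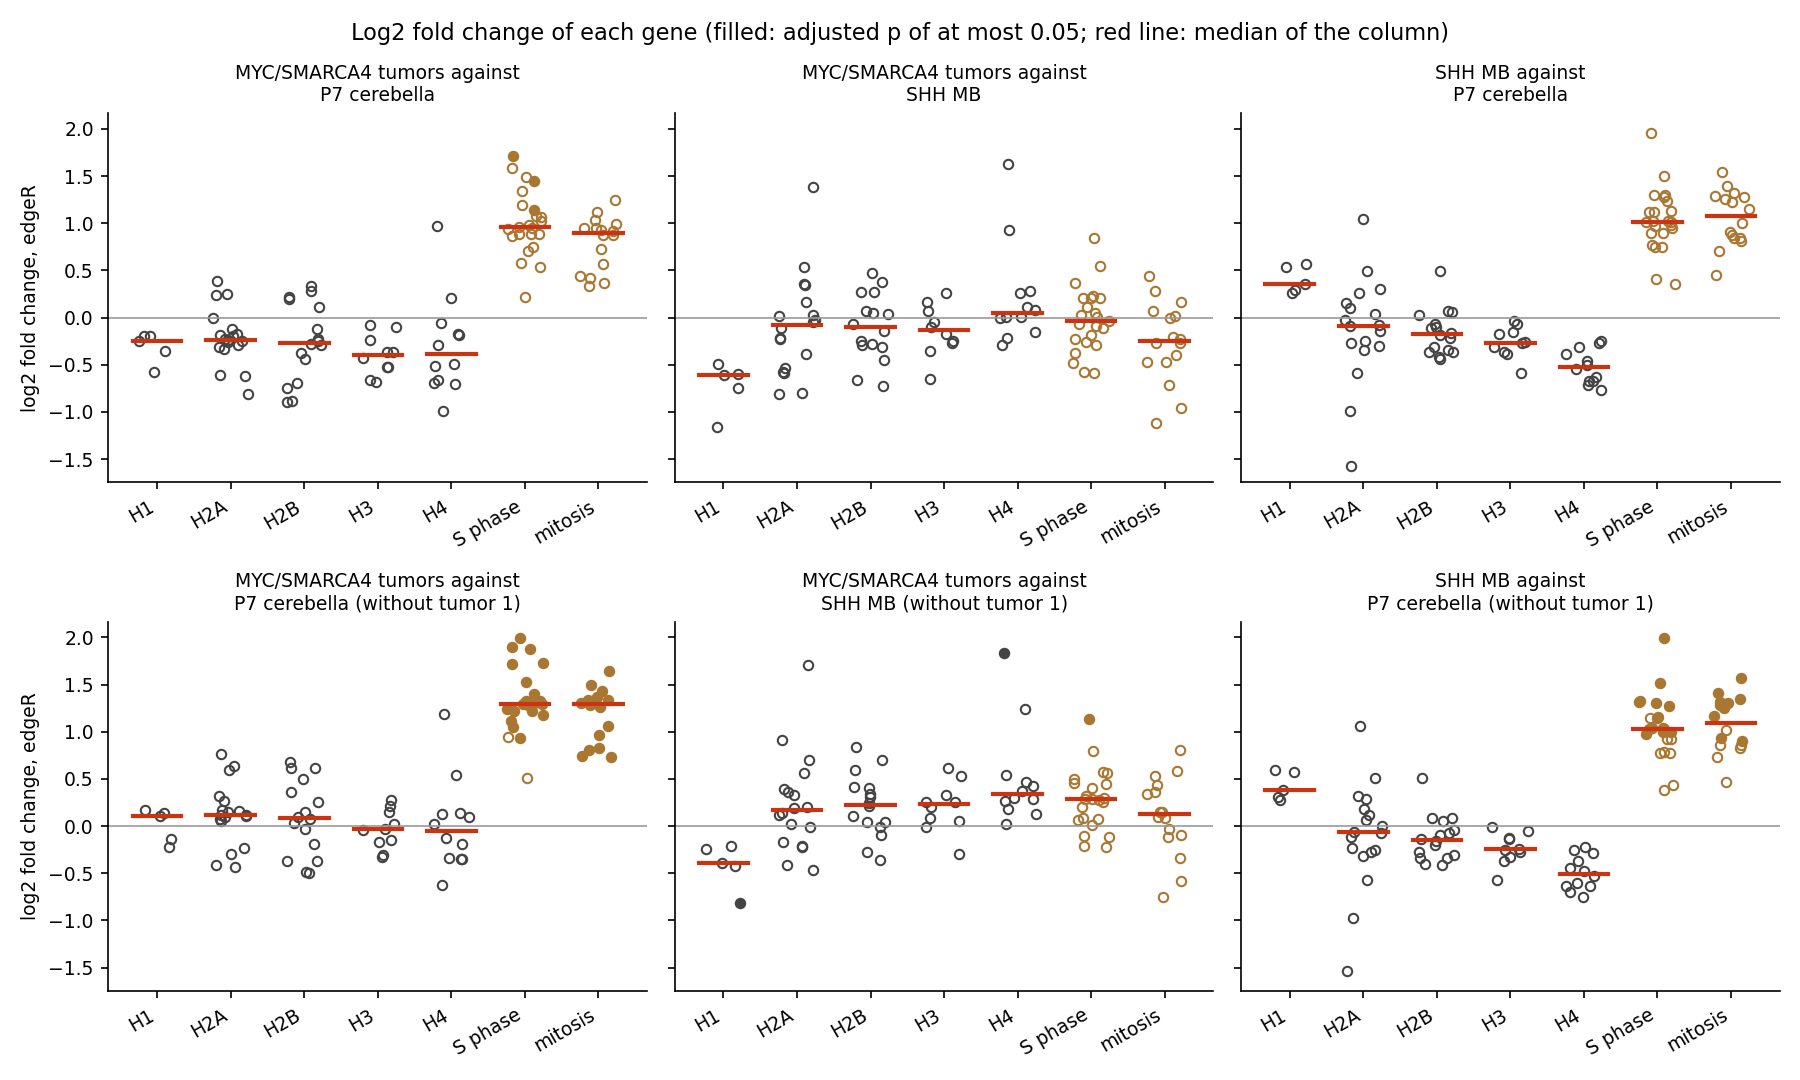
Log2 fold change by edgeR of each tested gene (1 circle each, filled where called) in the 3 comparisons, over all 10 libraries (top) and without tumor 1 (bottom), by histone class and for the S phase and mitosis lists, with a red line at each median. The H1 medians lie below 0 in tumors against SHH MB in both fits (-0.61 and -0.39), the 12 H4 genes lie below 0 in SHH MB against P7 cerebella, and the 2 lists lie above the histone classes in both comparisons with P7 cerebella.

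The comparison of tumors with SHH MB set 2 tumor models of the same precursor cell against each other, and it shares the tumors with the previous one. Between these groups age (79 to 112 days against 7), transplantation, the Smarca4 and cre alleles and tamoxifen differ too. None of these can be told apart from the tumor type here. No member passed the threshold over all 10 libraries by edgeR, where 2.43% of all genes were called higher in the tumors and 2.26% lower. An unadjusted p under 0.05 was reached by 1 member in each direction, beside 12.7% of all genes higher and 7.1% lower. H4c9 was higher in the tumors by 1.63 on the log2 scale (SE 0.55, 95% interval 0.45 to 2.82, adjusted p 0.115 by edgeR). H1f1 had a log2 fold change of -1.16 (SE 0.51, 95% interval -2.25 to -0.06, adjusted p 0.228 by edgeR). DESeq2 called H4c9 alone (log2 fold change 1.67, adjusted p 0.0327), where it called 7.89% of all genes higher and 4.11% lower. By limma on variance-stabilized values no member was called, beside 0.692% of all genes higher and 1.21% lower. At an unadjusted p under 0.05 limma had 2 members, with no share of all genes computed. The members' median was -0.10, against 0.01 over all genes, with 25 above 0 and 36 below.

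The 5 tested H1 genes all had fold changes below 0 in tumors against SHH MB, with a median of -0.61. In 4 members every tumor lay below every SHH MB (6.56% of members against 8.3% of all genes), in none did every tumor lie above (against 7.83%), and 3 of the 4 were H1 genes, H1f1, H1f2 and H1f5, with H2ac10 the other. Without tumor 1, the fold changes of the 5 H1 genes stayed below 0, with a median of -0.39, and those of the 12 H4 genes were all above 0, with a median of 0.33. Most H4 copies share coding windows and are not separate observations. In that fit H1f1 was called lower (-0.82, SE 0.23, 95% interval -1.32 to -0.31, adjusted p 0.0449 by edgeR). H4c9 was called higher (1.83, SE 0.52, 95% interval 0.71 to 2.95, adjusted p 0.0418 by edgeR). These were 1 of 61 members in each direction, beside 5.91% of all genes called higher and 3.86% lower, and the other 59 members were not called. H4c9 was also called higher without tumor 3 (1.79, adjusted p 0.0332 by edgeR), beside 9.57% of all genes. Tumors 1 and 3 had its lowest levels among the tumors, at 6.20 and 5.18 CPM. No member was called without tumor 2 or without tumor 4, beside 3.08% and 4.21% of all genes in both directions together. None was called without any single SHH MB either, beside 0.955% to 1.14% of all genes.

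The comparison of SHH MB with P7 cerebella set the SHH-driven tumor against whole cerebellum of the same age. The groups also differ in the Smarca4 and cre alleles and in tamoxifen, which cannot be told apart from the tumor here. Over all 10 libraries no member passed the threshold by edgeR, and few genes did, with 0.177% of all genes called higher in SHH MB and 0.0467% lower. No member had an unadjusted p under 0.05 by edgeR, beside 5.16% of all genes higher and 3.64% lower. DESeq2 tested 54 members and called none, beside 1.77% of all genes higher and 0.677% lower. By limma on variance-stabilized values no member was called, beside 0.128% of all genes higher and 0.0173% lower. The fitted changes split by class. All 5 H1 genes were above 0, with a median log2 fold change of 0.36, and all 12 H4 genes were below 0, with a median of -0.53, while the median of all genes was -0.09. Most H4 copies share coding windows, so these 12 are not separate observations. With single libraries left out, the difference in class sums ran from 0.26 to 0.65 for H1 and -0.68 to -0.17 for H4. Without P7 cerebellum 1 the median of all members was -0.01. H1f1, H1f5 and H2ac10 lay higher in every SHH MB (4.92% of members against 17.8% of all genes). H4c2, H4c4, H4c17, H4c18, H2ac7, H2ac21, H2bc22 and H3c3 lay lower in every SHH MB (13.1% of members against 19% of all genes). Both shares are below those of all genes, so groups without overlap were not more common among histone genes.

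Without tumor 1 again no member was called, beside 2.3% of all genes higher and 0.867% lower. Both fits share 1 estimate of spread with the tumors, which varied most. With only the SHH MB and P7 libraries in the fit, the common dispersion was 0.0264, against 0.178 with all 10, and 9 of 61 members (14.8%) were called, beside 13.4% of all genes called higher and 10.3% lower. Higher in SHH MB were 3 members, H1f1 by 0.59 (SE 0.13, adjusted p 0.00124 by edgeR), H2ac10 by 0.51 (SE 0.12, adjusted p 0.00194) and H1f5 by 0.56 (SE 0.15, adjusted p 0.00582). Lower were 6 members, of which 4 encode H4. H4c4 had a log2 fold change of -0.65 (SE 0.16, adjusted p 0.00284 by edgeR), and H4c2, H4c17 and H4c18 ran from -0.61 to -0.75. H3c3 stood at -0.57 and H2ac18 at -1.53, the latter on low levels of 0.47 to 4.802 CPM and with no coding window unique to it. The share of members called was no larger than that of all genes in both directions together. H4c17 and H4c18 have no unique coding window either, so their calls are not independent of each other or of other H4 copies.

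The ratio of histone transcripts to those of other DNA replication genes was lower in both tumor types than in P7 cerebella. The histone sum itself was 1.04 times that of P7 cerebella in SHH MB. In the MYC/SMARCA4 tumors it was 0.657 times (1 without tumor 1), with overlap in each case. The summed CPM of a fixed list of 23 S phase genes, which encode replication factors such as MCM subunits and polymerases, was 830, 642 and 694 in P7 cerebella and 1569, 1625 and 1649 in SHH MB. In the tumors it was 375, 1694, 1704 and 2282. Histone CPM per unit of S phase CPM was 3.83, 3.48 and 2.77 in P7 cerebella, 1.64, 1.62 and 1.37 in SHH MB and 1.19, 1.74, 1.07 and 1.11 in the tumors. Every tumor of both kinds lay below every P7 cerebellum, tumor 1 included. The geometric mean ratio in the tumors was 0.376 times that of P7 cerebella (0.383 without tumor 1), and that of SHH MB was 0.461 times. Tumors and SHH MB overlapped, at 0.816 times.

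**Figure D4:**
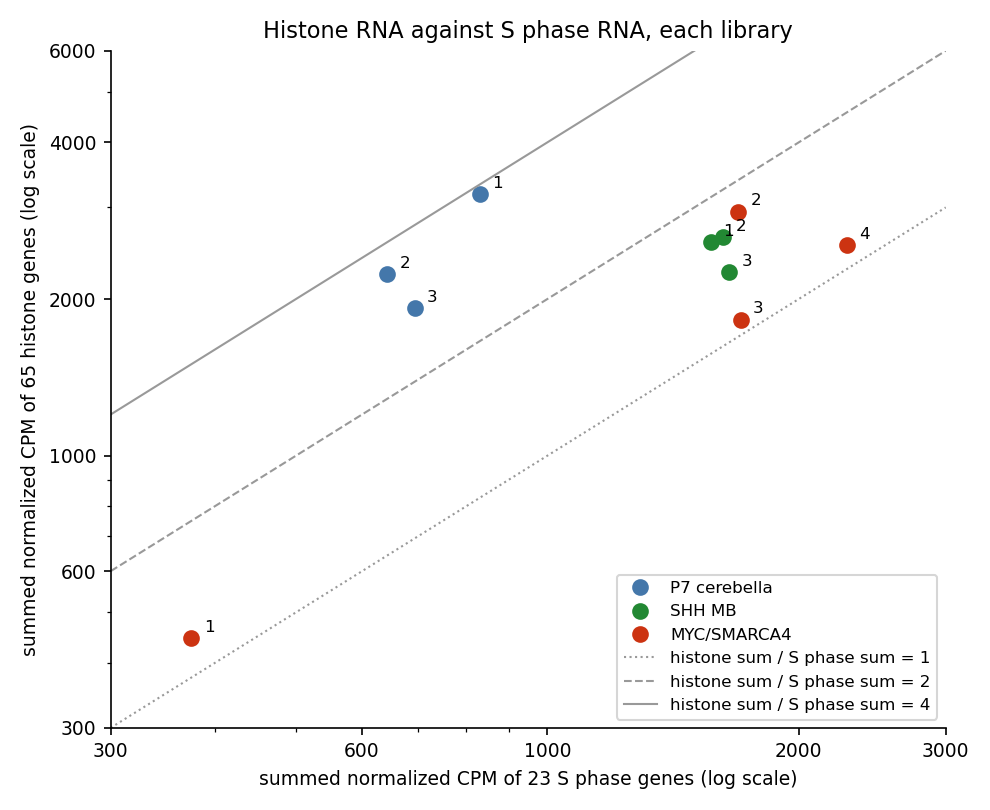
Summed normalized CPM of the 65 histone genes (vertical, log axis) against that of 23 S phase genes (horizontal, log axis), with 1 numbered point per library and lines at ratios of 1, 2 and 4. The 3 P7 cerebella have ratios of 2.77 to 3.83 and the 7 tumors of both kinds 1.07 to 1.74, with tumor 1 low on both axes.

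The lower ratio was present in every class, but the classes share the S phase sum as denominator and are not separate observations. Against P7 cerebella the tumors' ratio to the S phase sum was 0.402 for H1, 0.341 for H2A, 0.368 for H2B, 0.304 for H3 and 0.383 for H4, with no overlap in any. In SHH MB it was 0.598 for H1, 0.479 for H2A, 0.42 for H2B, 0.371 for H3 and 0.321 for H4, again with no overlap. The ratio in SHH MB was thus lowered least for H1 and most for H4. Between the tumor types H1 per S phase sum was lower in every MYC/SMARCA4 tumor, at 0.671 times, and the other classes overlapped. Set against a list of 16 mitosis genes, the ratio in SHH MB was 0.417 times that of P7 cerebella with no overlap. In the MYC/SMARCA4 tumors this ratio was 2.90, 1.13, 0.666 and 0.964, which overlapped the 1.53 to 2.07 of P7 cerebella at 0.655 times, and without tumor 1 it was 0.489 times with no overlap. These ratios rest on which list stands in the denominator, and they were given no test.

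The members of the S phase list themselves were mostly above P7 cerebella. In tumors against P7 cerebella 3 of 23 were called higher over all 10 libraries and none lower, with a median log2 fold change of 0.96, beside 3.99% of all genes called higher. Without tumor 1 it was 21, with a median of 1.29, beside 11.1% of all genes. They include Pola1, a subunit of DNA polymerase alpha, at 1.71 (adjusted p 0.0239 by edgeR), and Fen1, the flap endonuclease, at 1.14 (adjusted p 0.0367). In SHH MB against P7 cerebella all 23 were above 0, with a median of 1.01, and none was called over all 10 libraries (0.177% of all genes), against 15 without tumor 1 (2.3% of all genes). Of the 16 mitosis genes none was called over all 10 libraries in either comparison, with medians of 0.90 and 1.08, and 16 and 10 were called higher without tumor 1, beside the same 11.1% and 2.3% of all genes. Histone genes, with medians of -0.26 and -0.25 in the same comparisons over all 10 libraries, did not share that shift.

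Tumor 1 held fewer transcripts of nearly every histone gene. It was the lowest of the 10 libraries for 56 of the 61 tested members, and the median member stood at 10.9% of the median of tumors 2 to 4. Below 10% were 30 members, and below 20% were 44. No share of all genes was computed for these counts or for the lowest rank. How particular they are to histone genes therefore cannot be told. H2ac10, H2ac14, H2ac22 and H2ac24 had 0 counts there, as had the untested H2bc24 and H3c15. Above 30% stood 8 members. H2ac21, at 13.6 CPM against 16.02, 7.98 and 5.37 in tumors 2 to 4, was at 171% of their median, and H2bc21, at 8.68 CPM against 22.0, 11.6 and 9.76, at 74.7%. H4c14 and H1f2 followed among the abundant genes, at 46.4% and 45.6%. In SHH MB and P7 cerebella H2ac21 stood at 8.37 to 12.6 CPM and H2bc21 at 7.93 to 15.1 CPM.

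The members were also described by their annotated 3′ end. In 19 tested members the gene model runs over 100 bases past the stem-loop, where transcripts that were not cut there would be counted, and their median was 15.2% of tumors 2 to 4. The 35 with a model of up to 100 bases past it, or ending before it, had a median of 7.30%, the 6 in which no stem-loop was found had 10.8%, and H2ac14, which has no gene model, was at 0. The ranges overlap widely, at 2.96% to 46.4% and 0% to 171%, so the lengths do not separate the members. Among long models, H4c14, which runs 1257 bases past the stem-loop, stood at 46.4%, and H1f4, at 1153 bases, at 26.3%, but H1f3, at 4884 bases, stood at 8.47%, H2ac6, at 2010 bases, at 2.96% and H3c4, at 1422 bases, at 11.3%. The highest members, H2ac21 and H2bc21, were not among the long models. This is a description over genes of 1 library and was not tested.

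**Figure D5:**
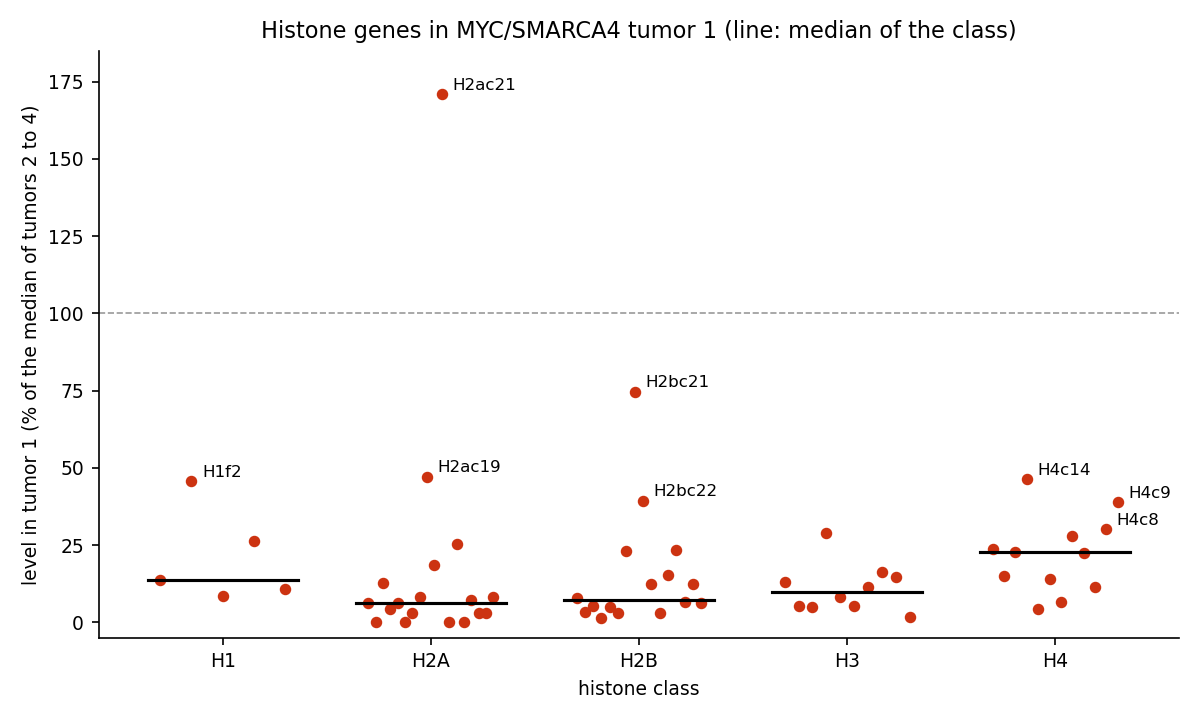
Level of each of the 61 tested members in tumor 1 as a percentage of the median of tumors 2 to 4 (linear axis, 1 point per gene, by histone class), with a line at each class median and a dashed line at 100%. The 8 members above 30% are named, H2ac21 is the one point above 100%, and the median over all members is 10.9%.

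Genes that make and process histone mRNAs were mostly above P7 cerebella in the tumors. Of a list of 19 genes of histone transcription and 3′ end processing, 1 was called higher in tumors against P7 cerebella and none lower over all 10 libraries, with a median log2 fold change of 0.73, a share near the 3.99% of all genes called higher. This was Ccne2, encoding cyclin E2 (1.30, SE 0.31, adjusted p 0.031 by edgeR). Rnu7, the U7 snRNA of the cleavage complex, stood at 2.16 (adjusted p 0.0652 by edgeR) and was not called. Without tumor 1, 12 were called higher and 1 lower, beside 11.1% and 5% of all genes, among them Eri1, an exonuclease of the histone mRNA end (1.19, adjusted p 0.00181 by edgeR), Cdk2 (1.35, adjusted p 0.00186), and the cleavage factors Sympk (0.99) and Cpsf2 (0.88). The one called lower was Lsm11, a protein of the U7 snRNP (-0.82, adjusted p 0.0185 by edgeR). Of 15 histone chaperones, which carry histones to DNA, Nap1l1 (1.54, adjusted p 0.0383 by edgeR), Supt16 (1.23, adjusted p 0.0402) and Rbbp7 (1.13, adjusted p 0.0421) were called higher (3.99% of all genes), and 9 without tumor 1 (11.1% of all genes). None of either list was called in tumors against SHH MB over all 10 libraries. In SHH MB against P7 cerebella none was called over all 10 libraries, and without tumor 1 Lsm11 was called lower (-1, adjusted p 0.0233 by edgeR), and Eri1 (0.81, adjusted p 0.0476) and 5 chaperones were called higher, beside 0.867% of all genes lower and 2.3% higher.

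A fixed list of replication-independent histone genes did not share the low level of tumor 1. Most such genes are expressed outside S phase and carry poly(A) tails, but the list includes H2ax, which has the stem-loop pattern. The summed CPM of this list was 851 in tumor 1 and 947, 643 and 876 in the other tumors, 953, 830 and 887 in P7 cerebella and 1183, 1248 and 1203 in SHH MB. Relative to the replication-dependent sum it was 1.91 in tumor 1 and 0.300 to 0.535 in the other 9 libraries. In tumors against SHH MB, H2az2, a gene of the variant H2A.Z (-1.22, SE 0.28, adjusted p 0.0286 by edgeR), and H1f0, the H1 of resting cells (-1.07, SE 0.26, adjusted p 0.0351 by edgeR), were called lower, 2 of 10 tested, beside 2.26% of all genes. Without tumor 1 both were called lower and H2aj was called higher (1.37, adjusted p 0.00406 by edgeR), beside 3.86% and 5.91% of all genes. In tumors against P7 cerebella none of the 10 was called over all 10 libraries. Without tumor 1, Cenpa, the centromeric H3 (1.14, adjusted p 0.00357 by edgeR), and H2aj (1.05, adjusted p 0.012) were called higher and H2az2 (-0.84, adjusted p 0.0427) lower, beside 11.1% and 5% of all genes. H2bu2 is not in the replication-independent list but is a replication-dependent histone gene outside the symbol rule. It was called lower in tumors against P7 cerebella (-1.14, SE 0.31, adjusted p 0.0469 by edgeR), 1 of 2 such genes tested, beside 2.27% of all genes.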

How the data were processed

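RNA from formalin-fixed tissue was depleted of ribosomal RNA (RiboCop) and made into total RNA libraries (CORALL, 75-base single reads). Per the labels, the authors trimmed reads with Trimmomatic 0.38.1, aligned them to GRCm39 with STAR 2.7.8a and deposited raw counts per gene from featureCounts 2.0.1. The annotation, strand setting, treatment of reads with several matches and use of molecular identifiers are not given in the sources used here. A deposited table of log2-scale variance-stabilized values (DESeq2 2.11.40.7) served as an alternative only, with limma.

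Counts were filtered with filterByExpr, normalized by TMM and tested with edgeR 4.0.16 (R 4.3.3, glmQLFit and glmQLFTest) on all 10 libraries with 1 term per group. Adjusted p-values are Benjamini-Hochberg over all genes, and a gene was called at 0.05 or below. Class sums and ratios are normalized CPM, compared as log2 means ± SD with no test. DESeq2 1.42.0 and limma 3.58.1 were alternatives, with other scaling, filters, samples and left-out libraries. The test was checked on simulated counts. Replicates differed beyond sampling noise. Any member could be named, and always the 3 with the highest level per class and those called, while of other lists the 4 with the lowest p in a comparison were named. H2aj, Lsm11 and the other list genes called without tumor 1 were named after their values were seen. The members and lists were chosen with earlier results of these data known. Gene models and stem-loops came from GENCODE vM39 (GRCm39), promoters from RefSeq (GRCm38.p6), of which only letters and no coordinates are given.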

Additional observations from a re-analysis of the deposited data

Results flagged for a closer look

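Of 24 measures examined in the MYC/SMARCA4 tumors (n = 4) for a sample far from the rest, 4 stood out, all through tumor 1. The groups of 3 were not examined in this way. In each, the gap to the nearest tumor divided by the range of the 4 exceeded Dixon's 95% critical value for 4 samples, which chance alone exceeds in about 1 in 20 groups, and the 4 measures share libraries and genes. The log2 summed CPM of H2A genes was 5.25 in tumor 1, with the nearest tumor at 8.48 (gap over range 0.907). The summed CPM of the mitosis list was 153.7 in tumor 1, with the nearest at 2613 (0.950). The ratio of summed H3 to summed H4 was 0.191 in tumor 1, with the nearest at 0.419 (0.876). The ratio of replication-independent to replication-dependent histone CPM was 1.91 in tumor 1, with the nearest at 0.352 (0.981). In the same library the summed markers of mature granule neurons, Purkinje cells and oligodendrocytes were 6360, 12080 and 4022 CPM, above every other library, and their part in these values was not tested.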

How the results depend on the processing

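In tumors against SHH MB, the number of members called higher was 1 with DESeq2 and 0 to 1 when single libraries were left out (H4c9, 1.83 without tumor 1 and 1.79 without tumor 3, where 9.57% of all genes were called higher). The number called lower was 0 to 1 (H1f1 without tumor 1). In SHH MB against P7 cerebella, 3 members were called higher and 6 lower with only these groups in the fit. The log2 difference in the histone sum per S phase sum, -1.41 for tumors against P7 cerebella and -0.29 against SHH MB, became -0.61 and 0.65 with the mitosis list. With members of at least 90% unique windows only, the H2A sum in SHH MB against P7 cerebella went from 0.11 to 1.05, where H2ac1 alone remained, the histone sum per S phase sum from -1.12 to -0.82, and H3 had no member left. H1f4 in tumors against P7 cerebella (-0.20) ranged from -0.39 to 0.11 when single libraries were left out, and turned positive without tumor 1 and, at 0.04, without P7 cerebellum 1. Of the other alternatives for the summary results, 320 kept the number of members called or moved by less than the larger of the 2 group SDs. A class sum could change sign within that spread, and with single libraries left out some did. Tumors against P7 cerebella ran from -0.79 to 0.05 for H1, -1.16 to 0.1 for H2A and -0.98 to 0.03 for H2B. Tumors against SHH MB ran from -0.9 to 0.09 for H2B, -1.06 to 0.1 for H3 and -0.41 to 0.34 for H4. SHH MB against P7 cerebella ran from -0.23 to 0.13 for H2B, and the other class sums kept their sign. With a replicate block, 0 members were called in every comparison, and same-numbered libraries correlated at -0.274 to 0.162, so the numbers were not read as pairs. Without TMM, the median of all genes shifted to -0.42, -0.22 and -0.20 and that of the members to -0.55, -0.28 and -0.34 in tumors against P7 cerebella, tumors against SHH MB and SHH MB against P7 cerebella. Levels under 3 counts, or 0.307 to 0.744 CPM, could not be told from 0.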
